A study of Sus scrofa with 18 samples.

Results

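The microRNA ssc-miR-204 was followed in the subcutaneous back fat of 18 Italian Large White pigs, 1 of 240 mature microRNAs (miRNAs) listed in the count table, with the 19 sequence forms of it that had reads in these animals. It was selected on its own levels by backfat class within each sex, so those levels are given here as a description, with no test. The animals were 5 castrated males with high and 4 with low backfat, and 4 females with high and 5 with low backfat. Their ages ranged from 233 to 250 days, they weighed 150 to 160 kg, and all shared 1 housing and diet. The males were all castrated, so castration and male sex cannot be told apart, and the day or method of castration is not given in the sources used here. Small RNA was read from whole backfat, 1 library for each animal.

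miRNAs are short RNAs that guide silencing proteins to messenger RNAs, mainly by pairing of bases 2 to 8, the seed. miR-204 comes from a hairpin within the TRPM3 gene and is known for repressing Runx2, the transcription factor that commits mesenchymal progenitors to bone. In cultured marrow stromal cells, miR-204 is known to favour fat cells over bone-forming cells. In the RefSeq table of the assembly Sscrofa11.1, MIR204 overlaps TRPM3 and has 0 other miRNA genes within 10000 bases. The files use another build, so no coordinates are given.

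The sequences below were copied from the deposited table and are shown because the forms, and not only the summed level, differed between animals. In the first line capitals mark the seed. In the others they mark bases added at the 3′ end or changed from the annotated sequence, with positions counted from 1 at its 5′ end.
annotated miR-204: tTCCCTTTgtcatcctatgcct
longer by 1 base: ttccctttgtcatcctatgcctG
longer by 2 bases: ttccctttgtcatcctatgcctGT
C3T form: ttTcctttgtcatcctatgcct
T22A form: ttccctttgtcatcctatgccA

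The annotated form is 22 bases long and held 69.0% of the 23483 miR-204 reads. The form longer by 1 base held 22.2%, and these 2 forms, the ones listed in all 18 libraries, held 91.2% together. The form longer by 2 bases held 2.56% and is listed by the authors as carrying 1 mismatch to the precursor. A form shorter by 1 base at the 3′ end held 2.07%, the C3T form 1.52% and the T22A form 0.967%. All 19 forms began at the same precursor position, so none moved the seed. Of 225 mature miRNAs with an exact form in the table, 0 others carried the seed of miR-204. The table lists a form at 0 in a library with fewer than 10 reads of it, so a rare form listed at 0 may still have had reads.

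miR-204 was of middle abundance. Its mean level was 54.3 CPM, that is, reads per 1000000 of all miRNA reads after scaling between libraries. This placed it 132 of the 226 miRNAs with enough reads to be tested, and its place in single libraries ranged from 115 to 156. The highest library held 4.57 times the level of the lowest. Its biological coefficient of variation, the spread between animals of like sex and class that edgeR estimates beyond counting error, was 0.323, against a median of 0.277, and 77 miRNAs varied more. Between 216 and 2589 reads of miR-204 were counted per library, out of 10225931 to 37619209 reads in all.

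In castrated males, miR-204 was lower in every high-backfat library than in every low-backfat library. The 5 high-backfat castrated males had 37.2, 55.9, 23.5, 26.1 and 20.6 CPM. The 4 low-backfat castrated males had 62.1, 57.6, 67.0 and 74.6 CPM. The groups did not overlap, although the highest value of the first, 55.9 CPM, lay close under the lowest of the second, 57.6 CPM. The means were 32.7 ± 14.5 CPM (SD, n = 5) and 65.3 ± 7.27 CPM (SD, n = 4). High minus low was -0.998 ± 0.288 (log2, SE). Non-overlapping classes were found in castrated males for 18 of the 226 miRNAs, or 7.96%, and an adjusted p under 0.05 (edgeR's quasi-likelihood test) for 9, or 3.98%. Since miR-204 was chosen for this contrast, nothing is read from its place among them. In such bulk tissue, fewer cells that make miR-204 and less miR-204 per cell cannot be told apart.

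In females the order of the class means was the opposite, with overlap. The 4 high-backfat females had 94.1, 80.7, 85.0 and 36.6 CPM. The 5 low-backfat females had 55.9, 69.6, 43.1, 42.7 and 45.4 CPM. Of the high-backfat libraries, 3 lay above all low-backfat ones and the other, the fourth, lay below all of them. The means were 74.1 ± 25.6 CPM (SD, n = 4) and 51.3 ± 11.5 CPM (SD, n = 5), and high minus low was 0.53 ± 0.29 (log2, SE). Classes of females did not overlap for 3 of 226 miRNAs, or 1.33%. In edgeR 0 of 226, or 0%, passed an adjusted p of 0.05 in females, with 21 at an unadjusted p under 0.05, and DESeq2 and limma, the latter run on the deposited normalised counts here and below, also called 0, with 24 and 27 unadjusted.

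**Figure D1:**
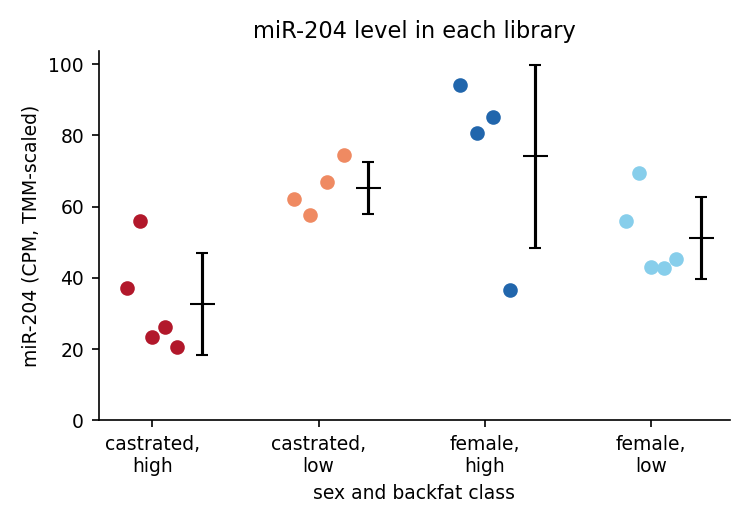
Level of miR-204 (vertical axis, CPM after TMM scaling) in each of the 18 libraries, by sex and backfat class; points are libraries and bars the mean ± SD of the group. The castrated classes do not overlap (20.6 to 55.9 CPM against 57.6 to 74.6 CPM), and the female classes do because of 1 high-backfat library at 36.6 CPM.

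The castrated class difference minus the female one was -1.53 ± 0.41 (log2, SE), the contrast for which miR-204 was chosen. In order of the group means, high-backfat castrated males came lowest, then low-backfat females, low-backfat castrated males and high-backfat females. Each of these groups overlapped the next one in the order. The only pair of the 4 groups that did not overlap was the 2 castrated classes.

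The library codes fall into 4 runs, U966 to U969, U074 to U077, U134 to U139 and AC485 to AC488, and what a run stands for is not given in the sources used here. In castrated males high minus low was -0.74 (difference of the means of log2 CPM) in U966 to U969, from 37.2 against 62.1 CPM with 1 library each. It was -0.04 in U074 to U077, from 55.9 against 57.6 CPM, again with 1 library each. It was -1.78 in AC485 to AC488, from 1 high-backfat library at 20.6 CPM and 2 low-backfat ones with a mean of 70.8 CPM. U134 to U139 held 2 high-backfat castrated males, with a mean of 24.8 CPM, and no low-backfat one. In females the same differences were 0.75, 0.21 and 0.38 in the first 3 runs, and AC485 to AC488 held no high-backfat female. Without AC485 to AC488 the fitted castrated difference was -0.79 ± 0.38 (log2, SE), and with the run as a covariate it was -0.96 ± 0.28.

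The mean of the 9 castrated males, 47.2 ± 20.5 CPM (SD), was below that of the 9 females, 61.4 ± 21.4 CPM (SD), by less than the spread within either. This contrast was not the one used for the choice and was tested. Castrated minus female was -0.38 ± 0.27 (log2, SE; edgeR's quasi-likelihood test with class as a covariate, Benjamini-Hochberg adjusted p = 0.609). No miRNA passed: 0 of 221, or 0%, with 17 at an unadjusted p under 0.05, and DESeq2 and limma also called 0, with 19 and 15 unadjusted. Within runs castrated minus female was -0.59, -0.40, -0.98 and 0.05 (log2 CPM, in the order of runs above), the last resting on 1 female. These values are not adjusted for class. In U134 to U139 both castrated males were high-backfat, against 2 high-backfat and 2 low-backfat females. AC485 to AC488 held 1 high-backfat and 2 low-backfat castrated males and 1 low-backfat female.

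In castrated males the class means of the annotated form lay further apart than those of the form longer by 1 base, by an amount that rested in part on the run AC485 to AC488. The annotated form averaged 21.2 ± 9.21 CPM in high-backfat and 49.9 ± 10.5 CPM in low-backfat castrated males (SD, n = 5 and 4). Its libraries ran from 15.1 to 36.2 CPM and from 38.1 to 60.0 CPM, without overlap. The form longer by 1 base averaged 8.72 ± 3.41 CPM and 9.45 ± 4.99 CPM in the same groups, with overlap. The log2 ratio of the class means was -1.23 for the annotated form and -0.12 for the longer one. The longer form was at 3.25 and 7.56 CPM in the 2 low-backfat castrated males of AC485 to AC488, and at 13.4 and 13.6 CPM in the others. Without that run the ratio was -0.86 for the annotated form (22.6 against 41.0 CPM, n = 4 and 2) and -0.48 for the longer one (9.66 against 13.5 CPM), an alternative chosen after seeing the data. In females both forms were on average higher with high backfat, at 50.5 against 36.0 CPM for the annotated form and 17.5 against 10.7 CPM for the longer one, and both overlapped. These ratios use the contrast the choice rests on and carry no test. How many exact forms of other miRNAs also lacked overlap between the castrated classes was not counted, so nothing is read from the lack of overlap.

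**Figure D2:**
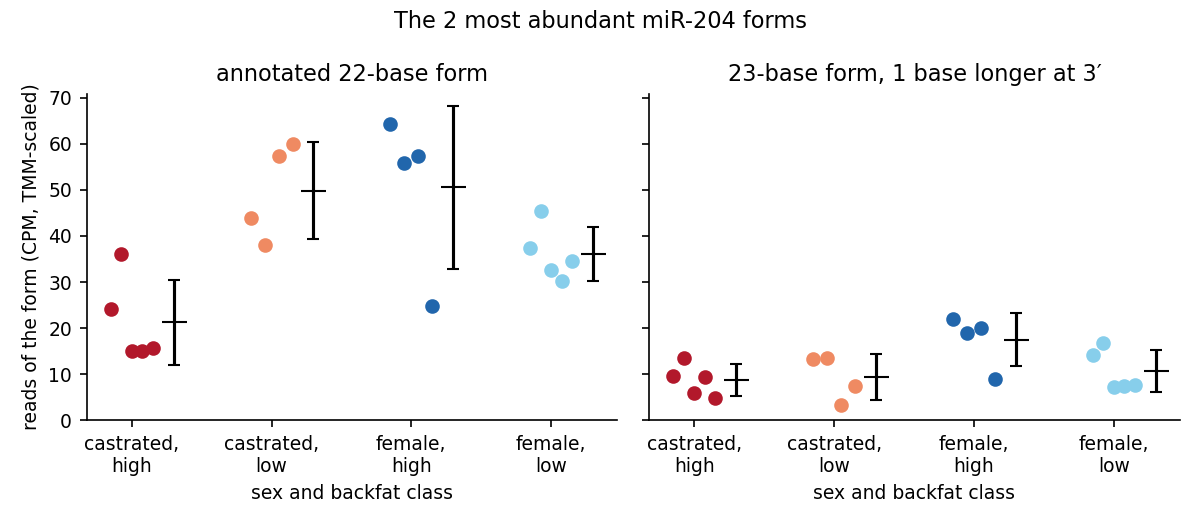
Reads of the annotated 22-base form (left) and of the form longer by 1 base at the 3′ end (right), in CPM after TMM scaling, by sex and backfat class; points are libraries and bars the group mean ± SD. In castrated males the classes do not overlap for the annotated form (at most 36.2 CPM against at least 38.1 CPM) and do for the longer form. The log2 ratios of their means without AC485 to AC488 are -0.86 and -0.48.

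The share of longer forms among all miR-204 reads lay between 21.6% and 25.8% in 12 of the 18 libraries. Longer forms with a mismatch were not counted as longer, which for miR-204 leaves the 23-base form. Low-backfat castrated males 3 and 4, both from AC485 to AC488, had 4.85% and 10.1%. Low-backfat females 3, 4 and 5 had 16.6%, 17.5% and 17.0%, and high-backfat castrated male 4 had 36.2%. The share of longer forms over all other miRNAs had a narrower range, and followed that of miR-204 only loosely (Spearman's rho 0.60 over the 18 libraries, a description). It was lowest, at 6.91%, in low-backfat castrated male 3 and highest, at 9.42%, in high-backfat castrated male 4. The part of the library's own length makeup in the miR-204 values was not tested.

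miR-204 reads were more often exact and more often longer than the pooled reads of other miRNAs. Over the 18 libraries the exact form took 69.9% ± 6.67 of miR-204 reads and 50.3% ± 1.36 of the reads of all other miRNAs pooled (SD). It was higher in 18 of 18 libraries (sign-flip permutation test over libraries, two-sided, 100000 resamples, p = 4.0e-05, the same after adjustment over 5 form classes). Longer forms took 21.8% ± 6.77 against 8.15% ± 0.623 and were higher in 17 of 18 libraries, with the same p. Shorter forms took 2.01% ± 0.778 against 18.5% ± 1.46, and forms with a mismatch 6.34% ± 2.28 against 18.7% ± 1.75, both lower in 18 of 18 libraries and with the same p. Forms with a shifted 5′ start were at 0 for miR-204 in all libraries and at 4.38% ± 0.306 for the others. These p values show only that the differences from the pool recur over libraries, and not how unusual miR-204 is among miRNAs. The 5 shares add up to the whole, so their tests are not separate. The floor of 10 reads hides rare forms of a miRNA of middle abundance more than those of abundant ones, and its part in the lower shares was not tested. With every form under 10% of the exact reads left out for all miRNAs, the exact share of miR-204 was 15.3 percentage points above that of the others, against 19.6 with all forms. Among 172 other miRNAs of at least 10 CPM taken singly, 18 had a higher exact share and 37 a higher share of longer forms.

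**Figure D3:**
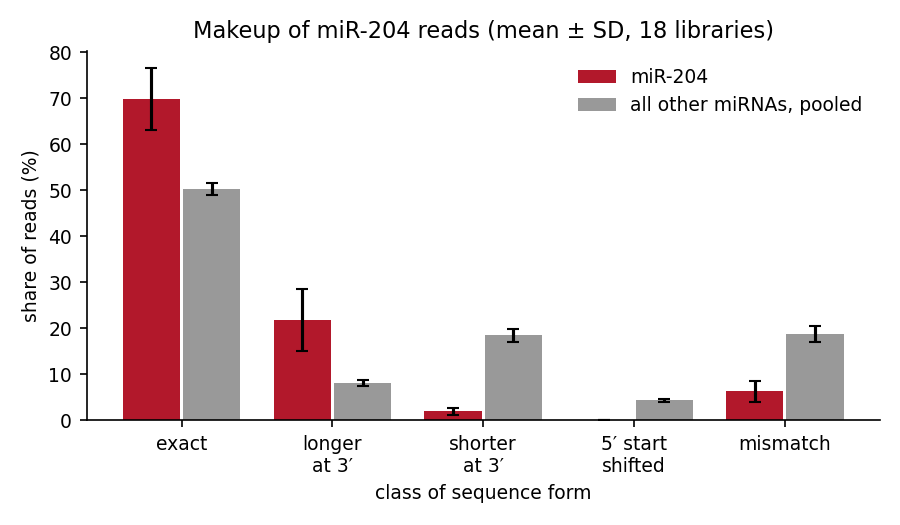
Share of reads (vertical axis, %) in 5 classes of sequence form for miR-204 and for all other miRNAs pooled; bars are means over 18 libraries and error bars SD. miR-204 stands higher in the exact class (69.9% against 50.3%) and in the longer class (21.8% against 8.15%), and lower in the other 3.

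The makeup of forms was not shown to differ between the sexes. The exact form took 70.1% ± 8.95 in castrated males and 69.7% ± 3.80 in females (SD, n = 9 each; exact two-sided permutation test, p = 0.911, adjusted over 4 form classes 0.996). Longer forms took 21.8% ± 9.18 and 21.8% ± 3.60, and the castrated values were the more spread.

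The C3T substitution lies inside the seed, and was the most frequent substitution, with 404 of the miR-204 reads, against 227 for T22A and 77 for T22G. It was listed in 15 libraries, where C3T reads made up 0.792% to 5.23% of C3T, exact and longer reads together. In the other 3 libraries both C3T forms, of 22 and 23 bases, were listed at 0, and up to 9 hidden reads of each leave shares of up to 1.52%, 2.08% and 7.69% possible. The same change was measured in the 57 other miRNAs with C at position 3. Pooled over libraries, C3T took 1.85% in miR-204 and 1.98% in those miRNAs, 28 of which were at or above miR-204. Their pooled share ran from 0.680% to 3.94% by library and was high in the libraries where that of miR-204 was high (Spearman's rho 0.92 over the 15 libraries with C3T listed, 0.78 over all 18, a description, since both come from 1 library's reads). The C3T share of miR-204 thus ran alongside that of other miRNAs in the same libraries.

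**Figure D4:**
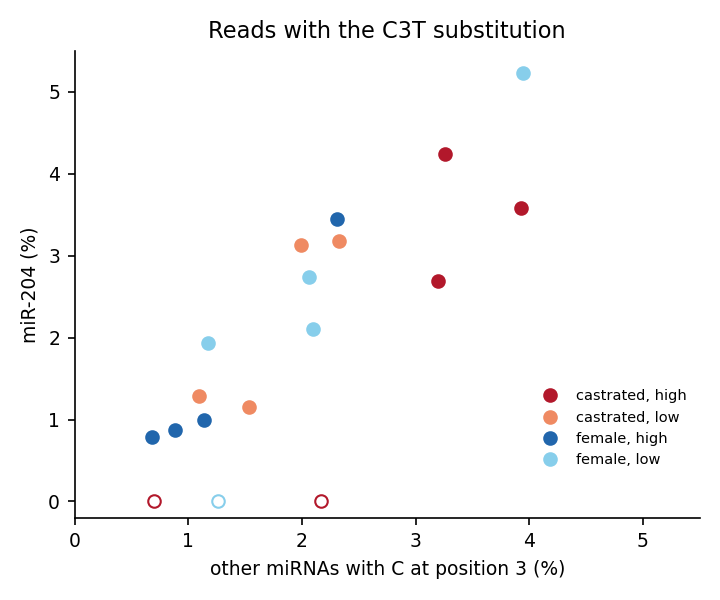
Share of C3T reads in miR-204 (vertical axis, %) against the pooled share in 57 other miRNAs with C at position 3 (horizontal axis, %), 1 point per library, coloured by sex and class; open points are libraries in which no C3T form of miR-204 was listed, drawn at 0. Where listed, the miR-204 share runs from 0.792% to 5.23% along that of the other miRNAs.

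Age itself was not used in the choice, but among females it moved in part with backfat class, which was. The age values below without class means subtracted are therefore not independent of the choice. In females the miR-204 level was lower in older animals: the 3 youngest, at 235, 237 and 239 days, had 94.1, 85.0 and 80.7 CPM, and the oldest, at 250 days, had 36.6 CPM. That oldest animal is the high-backfat female that lay below all low-backfat ones. Over the 9 females Pearson's r of log2 CPM with age was -0.94 (exact permutation test, two-sided, p = 0.000386, adjusted over 3 sets of libraries 0.00116) and Spearman's rho -0.98 (exact p = 6.61e-05). Without the 2 ages farthest from the female median, 235 and 237 days, r was -0.89 (exact p = 0.00873, n = 7), and without any 1 female it ran from -0.97 to -0.92. After subtracting class means from level and age, r was -0.93 (permutation p = 0.0015). That p is approximate, since the residuals were permuted across classes. Of 226 miRNAs, 0 others had an r of that size in females, and ssc-miR-744 came next with -0.91.

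The age relation did not pass when all miRNAs were tested together. In an edgeR fit of all 226 miRNAs with an age slope for each sex beside the 4 group means, the female slope of miR-204 was -0.90 ± 0.30 log2 per 10 days (SE, edgeR adjusted p = 0.451), ranked 2 of 226 by p. That fit called 0 of 226 female slopes, or 0%, with 20 at an unadjusted p under 0.05. Without the high-backfat female of 250 days, replicate 4, the slope was -0.74 ± 0.60 (edgeR adjusted p = 0.996). High-backfat females were on average younger, 240.2 ± 6.70 days against 246.4 ± 2.79 days (SD, n = 4 and 5), so age and class move together in part. With age as a covariate the female class difference was 0.20 ± 0.31 (log2, SE) instead of 0.53.

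In castrated males no such relation was seen, with r -0.21 (exact permutation p = 0.582, n = 9), and a slope of -0.09 ± 0.28 log2 per 10 days (edgeR adjusted p = 0.997; 0 of 226 slopes called, 5 unadjusted). The slopes of the sexes differed by 0.81 ± 0.40 (castrated minus female, edgeR adjusted p = 0.997; 0 of 226 called, 3 unadjusted), so a difference between sexes was not shown. Over all 18 animals r was -0.35 (permutation p = 0.155) and rho -0.47 (permutation p = 0.0497). Without the animals of 233 and 250 days r was -0.29 (permutation p = 0.271). With the 4 group means subtracted r was -0.53 (permutation p = 0.0234, approximate since residuals were permuted across groups). Within run U134 to U139, the only run with 6 libraries, r was -0.26 (exact permutation p = 0.603), and the other runs hold too few. That r pools the sexes. The run's 2 castrated males had 26.1 and 23.5 CPM at 241 and 243 days. Its 4 females had 85.0 CPM at 237 days, 43.1 and 42.7 CPM at 249 days and 36.6 CPM at 250 days. With age as a covariate the castrated class difference was -0.93 ± 0.27 (log2, SE), near the -0.998 without it.

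**Figure D5:**
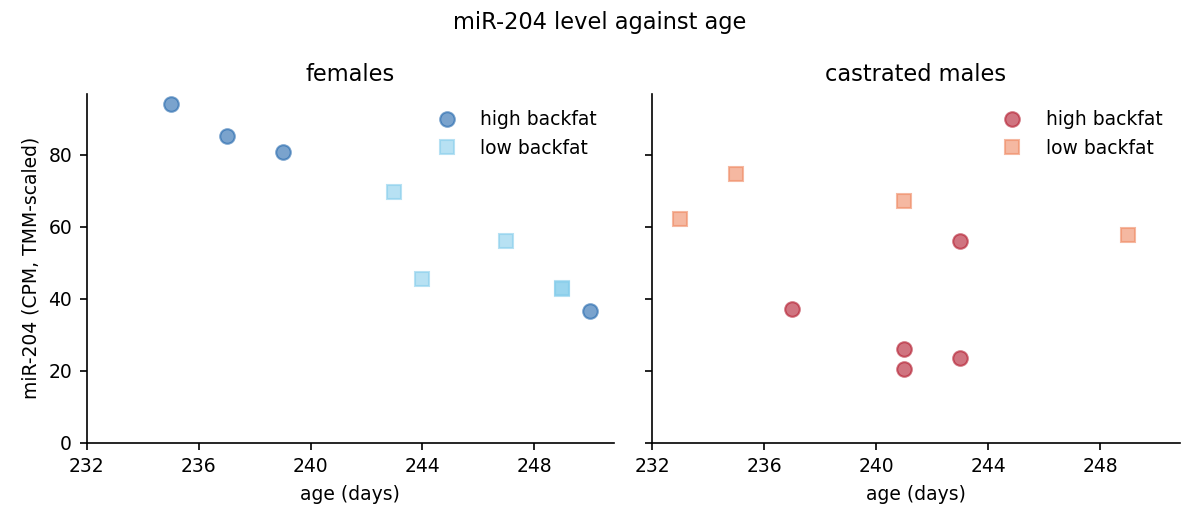
Level of miR-204 (vertical axis, CPM after TMM scaling) against age in days (horizontal axis) in females (left) and castrated males (right); circles are high-backfat and squares low-backfat animals. In females the level runs from 94.1 CPM at 235 days to 36.6 CPM at 250 days, and the 2 squares at 249 days lie on each other.

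The miRNAs whose levels ran most like that of miR-204 over the 18 libraries, among 173 with at least 10 CPM, were ssc-miR-874 (Spearman's rho 0.72), ssc-miR-127 (0.68), ssc-miR-149 (0.68), ssc-miR-425-3p (0.65) and ssc-miR-133a-3p (0.63). After the 4 group means were subtracted, the rho of the first 4 was 0.53, 0.40, 0.45 and 0.37. That of miR-133a-3p, a skeletal muscle miRNA, was 0.08, so its likeness lay between groups and not within them. Running against miR-204 were ssc-let-7f (-0.84), ssc-miR-7 (-0.66) and ssc-let-7e (-0.64). With the group means subtracted their rho was -0.41, -0.31 and -0.43, in the same order. These are descriptions over 18 shared libraries, with no p.

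Other miRNAs known to repress Runx2 had mostly negative high-minus-low differences in castrated males. Of 9 arms tested beside miR-204, 7 were negative and 2 positive in castrated males, with a median of -1.01 (log2) against 0.01 over all 226 miRNAs, and 2 of the 9 fell past the threshold, where 9 of 226 miRNAs, or 3.98%, were called in either direction. These were the muscle miRNAs ssc-miR-133a-3p (-2.12 ± 0.39 log2, SE, edgeR adjusted p = 0.00607), at 44.2 ± 9.36 CPM against 192 ± 83.4 CPM, and ssc-miR-133b (-2.90 ± 0.56, adjusted p = 0.00607), at 0.342 ± 0.134 CPM against 2.65 ± 0.928 CPM. Without AC485 to AC488 both missed the threshold (adjusted p = 0.133). The high-backfat mean of miR-133b lay near the read floor. A floor of 10 reads was 0.321 to 0.794 CPM in those libraries, so the size of its difference is uncertain. The median of the 9 arms is the value of ssc-miR-34c (-1.01 ± 0.48, SE, edgeR adjusted p = 0.215), which did not pass. ssc-miR-34c was also at low counts, 1.06 CPM with high and 2.13 CPM with low backfat, so that median is uncertain too. Among those that did not pass, ssc-miR-23a, of the miR-23/27/24 cluster, was at -0.26 ± 0.14, ssc-miR-30c-5p at 0.19 ± 0.16 and ssc-miR-338 at -1.57 ± 0.60. In females 0 of the 9 were called and the median was -0.05, and between the sexes 0 were called and the median was -0.07.

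The sum of the skeletal muscle markers, like miR-204, was lower with high backfat in castrated males. Summed over 8 arms of 6 names, all with reads, they ran from 54.1 to 90.0 CPM in high-backfat and from 149.9 to 353 CPM in low-backfat castrated males, without overlap. In females they ran from 93.0 to 239 CPM and from 104 to 311 CPM. Much of the sum was ssc-miR-133a-3p, which alone averaged 44.2 CPM with high and 192 CPM with low backfat in castrated males. The rho of the sum with miR-204 over the 18 libraries was 0.68. It was not taken with group means subtracted, where that of miR-133a-3p was 0.08. The part of the muscle markers in the miR-204 difference was not tested. The sums for red blood cell, leukocyte, endothelial, epithelial, neural, liver and fibroblast markers overlapped between the castrated classes. Of the islet list only miR-7 had reads, at 20.9 to 35.4 CPM with high and 14.7 to 18.9 CPM with low backfat in castrated males, without overlap, and its part was not tested either. The melanocyte marker miR-211, the islet marker miR-375, 6 of the 10 epithelial names, the leukocyte marker miR-223, the neural markers miR-124 and miR-129 and the liver marker miR-885 were not analysed here, so those sums lack them. No list held a marker that defines fat cells, so the tissue label was not checked against one.

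Of the miRNAs known to promote fat cell differentiation, 20 arms were tested beside miR-204. In castrated males 12 were positive and 8 negative, the median was 0.09 (log2), and 1 of 20 passed, a share near the 3.98% called among all miRNAs, so nothing is read from it about the list. It was ssc-miR-146b, at 428 ± 215 CPM with high and 113 ± 29.4 CPM with low backfat (1.92 ± 0.44 log2, SE, edgeR adjusted p = 0.0155). Its call was lost without AC485 to AC488 (adjusted p = 0.232), without high-backfat castrated male 1 (0.0556), without low-backfat castrated male 2 (0.0595), with exact forms alone (0.127) and in limma on the deposited normalised counts (0.0536). The most abundant of the list did not pass: ssc-miR-143-3p was at 0.10 ± 0.18, ssc-miR-148a-3p at -0.01 ± 0.21, ssc-miR-181a at 0.14 ± 0.17 and ssc-miR-30a-5p at -0.09 ± 0.16. In females 0 of 20 passed, with a median of 0.04, and between the sexes 0 passed.

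Of the miRNAs known to restrain fat cell differentiation, 16 arms were tested. In castrated males 8 were positive and 8 negative, with a median of 0.06 (log2), and 2 of 16 rose with high backfat, beside 3.98% of all miRNAs called in either direction. These were ssc-miR-222 (1.37 ± 0.27, SE, edgeR adjusted p = 0.00649), at 310 ± 88.5 CPM against 119.8 ± 26.7 CPM, and its cluster partner's passenger arm ssc-miR-221-5p (1.54 ± 0.35, adjusted p = 0.0155), at 14.2 ± 6.09 CPM against 4.88 ± 1.23 CPM. Both calls were lost without AC485 to AC488 (adjusted p = 0.188 and 0.133) and in limma on the deposited normalised counts (0.0588 and 0.0536). That of miR-221-5p was also lost without high-backfat castrated male 1 (0.0556) and without low-backfat castrated males 2 (0.0582) or 3 (0.0546). The more abundant arm of the same hairpin, ssc-miR-221-3p, was not called (0.60 ± 0.25 log2, SE, edgeR adjusted p = 0.182). It averaged 458 ± 128 CPM with high and 302 ± 97.9 CPM with low backfat. The most abundant of the list, ssc-miR-27b-3p, was at -0.03 ± 0.16 and ssc-let-7a at 0.23 ± 0.13, and neither passed. In females 0 of 16 passed, with a median of -0.08, and between the sexes 0 passed, with a median of -0.02.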

How the data were processed

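The authors deposited raw counts, whole reads of each sequence form under each precursor, with precursor positions and a form category, and normalised counts, a signal equal to the deposited count divided by 1 size factor per library. The submitters' processing notes name Bowtie 0.12.7, HTSeq, DESeq2 1.4.5 and Sscrofa10.2, with no role or order. Adapter trimming: not given in the sources used here. Per the labels' protocols, TruSeq Small RNA libraries were run on an Illumina GAII, 2 to a lane, with 100 bases read from 1 end. Whether precursor positions count from 0 or 1 is not stated.

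A sequence listed under several precursors holds part of its reads in each, so listings were summed per mature miRNA; miR-204 has 1 precursor and 0 shared sequences. The table holds 2 further count columns that match no sample, which were not used. Fits used edgeR 4.0.16 (R 4.3.3; filterByExpr with minimum count 10, TMM, quasi-likelihood F test, Benjamini-Hochberg over all miRNAs tested, threshold 0.05) on all 18 libraries; limma 3.58.1 (on log2 of the deposited normalised counts plus 1) and DESeq2 1.42.0 were alternatives. SE was derived from the F statistic, and 2 was the prior count in log2 CPM. Permutation tests used SciPy 1.17.1. Scripts were tested on simulated data.

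Groups came from the sex and backfat class in the labels. Replicate numbers follow the order of the samples and pair nothing. miR-204, the miRNA lists and the tests were chosen with earlier results of these data known. Named miRNAs are miR-204, the 5 most and 3 least like it by Spearman's rho, and those list members that were called or among the 4 most abundant. ssc-miR-338, ssc-miR-34c, ssc-miR-221-3p, ssc-miR-744 and the T22A and T22G forms were chosen after their values were seen.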

Additional observations from a re-analysis of the deposited data

Results flagged for a closer look

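The share of longer forms among miR-204 reads in high-backfat castrated male 4 was 36.2%, far above the other 4 libraries of its group, which lay between 24.1% and 25.8%. The gap was 0.856 of the whole range of the group. Of 20 groups of values examined in this way (5 measures in 4 groups), 1 stood out, and chance alone gives about 1 in 20.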

How the results depend on the processing

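Over all alternatives run, the class differences of miR-204 kept their sign: -1.28 to -0.90 (log2) with 1 library left out and -1.18 to -0.79 otherwise in castrated males, 0.38 to 0.76 and 0.20 to 0.67 in females. Castrated minus female stayed between -0.52 and -0.28, with adjusted p from 0.308 to 0.836. The exact-form share stayed 12.8 to 33.4 percentage points above other miRNAs. Its difference between sexes, 0.38 points, ran from -1.57 to 1.92 with 1 library left out and changed sign without low-backfat female 2 (-0.17), castrated low 3 (-1.57), castrated low 4 (-0.92) or castrated high 5 (-0.36). Pearson's r with age over all animals missed the threshold except with group means subtracted (r -0.53). Class calls in castrated males numbered 9 in edgeR, 13 in DESeq2 and 2 in limma on the deposited normalised counts. Counting each repeated sequence once, forms listed in all libraries, 1 read floor scaled to depth, the 10% limit on forms, the main forms without AC485 to AC488 and the age slopes by sex were added after seeing the data. The labels carry no replicate numbers that pair animals; the run of library codes entered as a covariate instead. Depth limits forms: in the smallest library 10 reads are 0.978 CPM.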
